A study of Mus musculus with 10 samples.

Results

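The genes described here are the 10 that encode the TGF-β ligands (Tgfb1, Tgfb2, Tgfb3), their receptors (Tgfbr1, Tgfbr2, Tgfbr3) and the latent TGF-β binding proteins (Ltbp1, Ltbp2, Ltbp3, Ltbp4). They were chosen by gene symbol, matched to the identifiers of the count table. The rule uses no measured value, but it was written with earlier results of these data known. They are 10 of the 22731 genes in the table, and 10 of 10 were among the 16344 genes that passed a filter on low counts and were tested.

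Bulk RNA sequencing measured gene expression in mouse fibroblasts kept alone or together with ILC2s. ILC2s, the innate lymphoid cells of group 2, reside in tissues, lack antigen receptors and secrete type 2 cytokines such as IL-13. The series title places the work in the pancreas, on a fibroblast progenitor niche marked by Pi16. The fibroblasts carried podoplanin and PDGFRα and lacked CD45, Epcam and CD31, and the ILC2s were lineage-negative CD45+ cells carrying KLRG1. The fibroblast gate after coculture is written in the design text as CD45+, whereas the starting gate was CD45-. In all 10 libraries the genotype label of the fibroblasts is C57B6. The treatment label separates 4 libraries of fibroblasts alone (monoculture), 3 with WT ILC2s (WT coculture) and 3 with IL13KO ILC2s (IL13KO coculture), the last being ILC2s without a working Il13 gene. Neither culture length nor the age of the mice is in the labels used here, and the labels tie no library to an animal, day or culture. The p-values therefore measure the spread between libraries, which may be technical.

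TGF-β is secreted as an inactive complex, in which the mature growth factor stays wrapped in its own propeptide. LTBP1, LTBP3 and LTBP4 bind that propeptide and anchor the complex to fibrillin microfibrils in the matrix, from which integrins, proteases and matrix tension can release it. Free ligand is caught by the co-receptor betaglycan (Tgfbr3), binds the type II receptor kinase (Tgfbr2) and is signalled onward by the type I kinase (Tgfbr1), which phosphorylates SMAD2 and SMAD3. Fibroblasts both secrete the latent complex and respond to the active factor.

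The promoters of 4 genes are shown, chosen after their values were seen: Ltbp1 and Ltbp2, the pair with the largest differences between the cocultures, and Tgfbr2 and Ltbp4, a pair that rose in both cocultures. The sequences are from RefSeq's promoter table on GRCm38.p6, written 5′ to 3′ on the strand of the gene, and end at the start site or, where an annotated exon reaches further upstream, at that exon. Capitals mark matches to CAGAC, the core box bound by SMAD proteins, on either strand (the reverse complement is GTCTG). The Ltbp1 stretch is chr17:75005279-75005528 on the plus strand and holds 1 match. The others lie on the minus strand: Ltbp2 at chr12:84876533-84876741 with 2 matches, Tgfbr2 at chr9:116175364-116175613 with 1 and Ltbp4 at chr7:27337693-27337862 with 0.
Ltbp1: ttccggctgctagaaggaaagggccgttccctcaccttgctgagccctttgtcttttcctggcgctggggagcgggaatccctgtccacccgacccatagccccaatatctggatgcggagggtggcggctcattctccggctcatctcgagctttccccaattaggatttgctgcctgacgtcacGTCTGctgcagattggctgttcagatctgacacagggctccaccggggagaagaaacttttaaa
Ltbp2: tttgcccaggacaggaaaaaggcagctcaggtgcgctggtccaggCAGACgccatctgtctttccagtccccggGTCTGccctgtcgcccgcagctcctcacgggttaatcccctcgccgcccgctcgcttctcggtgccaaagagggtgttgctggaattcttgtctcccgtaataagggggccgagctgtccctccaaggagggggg
Tgfbr2: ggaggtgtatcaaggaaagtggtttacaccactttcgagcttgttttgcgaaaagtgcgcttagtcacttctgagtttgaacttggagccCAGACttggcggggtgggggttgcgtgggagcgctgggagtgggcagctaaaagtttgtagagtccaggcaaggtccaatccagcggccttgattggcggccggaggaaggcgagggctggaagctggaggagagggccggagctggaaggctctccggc
Ltbp4: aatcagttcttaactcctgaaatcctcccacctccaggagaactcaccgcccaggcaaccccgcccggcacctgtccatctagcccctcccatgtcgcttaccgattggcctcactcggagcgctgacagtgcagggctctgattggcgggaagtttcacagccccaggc

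The table held windows for 8 of the 10 genes, 12 windows of 250 bases in all. CAGAC or its reverse complement occurs in 42.2% of all 32851 windows of that length. A STAT6-type site (TTC and GAA separated by any 4 bases, 5.85% of all windows) and an AP-1 site (TGANTCA, 6.75%) were also searched for on both strands, and neither set of letters is in the 12 windows. The matches shown therefore overlap neither of these, and a match describes the sequence only.

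Reads of Il13 followed the labels, with 30, 120 and 121 in the WT cocultures and 0 in every other library. Total counts per library ranged from 10710410 to 14366199 for monocultures, from 18801744 to 22087459 for WT cocultures and from 17277432 to 17661229 for IL13KO cocultures. Fibroblast markers (Pdgfra, Pdpn, Col1a1, Col1a2, Dcn, Lum, Thy1) had reads in every group, 7 of 7. Ptprc, which encodes CD45, had 0 reads in the monocultures, 6, 3 and 9 in the WT cocultures and 0, 1 and 0 in the IL13KO cocultures. Below, levels are CPM (counts scaled to 1e+06 per library, on TMM-normalised library sizes), log2 fold changes are given ± SE from edgeR's quasi-likelihood test, and a gene was called when its Benjamini-Hochberg adjusted p over all 16344 genes was below 0.05. WT libraries bear the numbers 1, 3 and 4 of the count table and are listed in that order.

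With IL13KO ILC2s, 7 of the 10 genes rose against the monoculture (Tgfb3, Tgfbr1, Tgfbr2, Tgfbr3, Ltbp1, Ltbp2, Ltbp4) and 1 fell (Tgfb2), while 57.4% of all genes tested were called in that comparison, 30.1% as higher and 27.3% as lower. With WT ILC2s, 3 rose (Tgfbr2, Tgfbr3, Ltbp4) and 2 fell (Tgfb2, Tgfbr1), where 62.5% of all genes were called, 32.8% higher and 29.7% lower. Between the cocultures, 6 of 10 were lower with WT than with IL13KO ILC2s (Tgfb3, Tgfbr1, Tgfbr3, Ltbp1, Ltbp2, Ltbp3) and 0 were higher, where 23.3% of all genes were called, 11.6% higher and 11.7% lower. The genes called were in each comparison those whose groups did not overlap in CPM: 5 of 10 for WT against monoculture, 8 for IL13KO against monoculture and 6 for WT against IL13KO, beside 60.9%, 59.2% and 49% of all genes in that order. The count with WT ILC2s is thus near its background. The median log2 fold change of the 10 was -0.134 for WT against monoculture, 1.398 for IL13KO against monoculture and -1.03 for WT against IL13KO, beside 0.015, 0.002 and -0.004 over all genes tested. Both comparisons with the monoculture use the same 4 libraries, so their values are set side by side and not counted as independent. In bulk RNA, fewer cells of a type and less RNA per cell cannot be told apart.

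**Figure D1:**
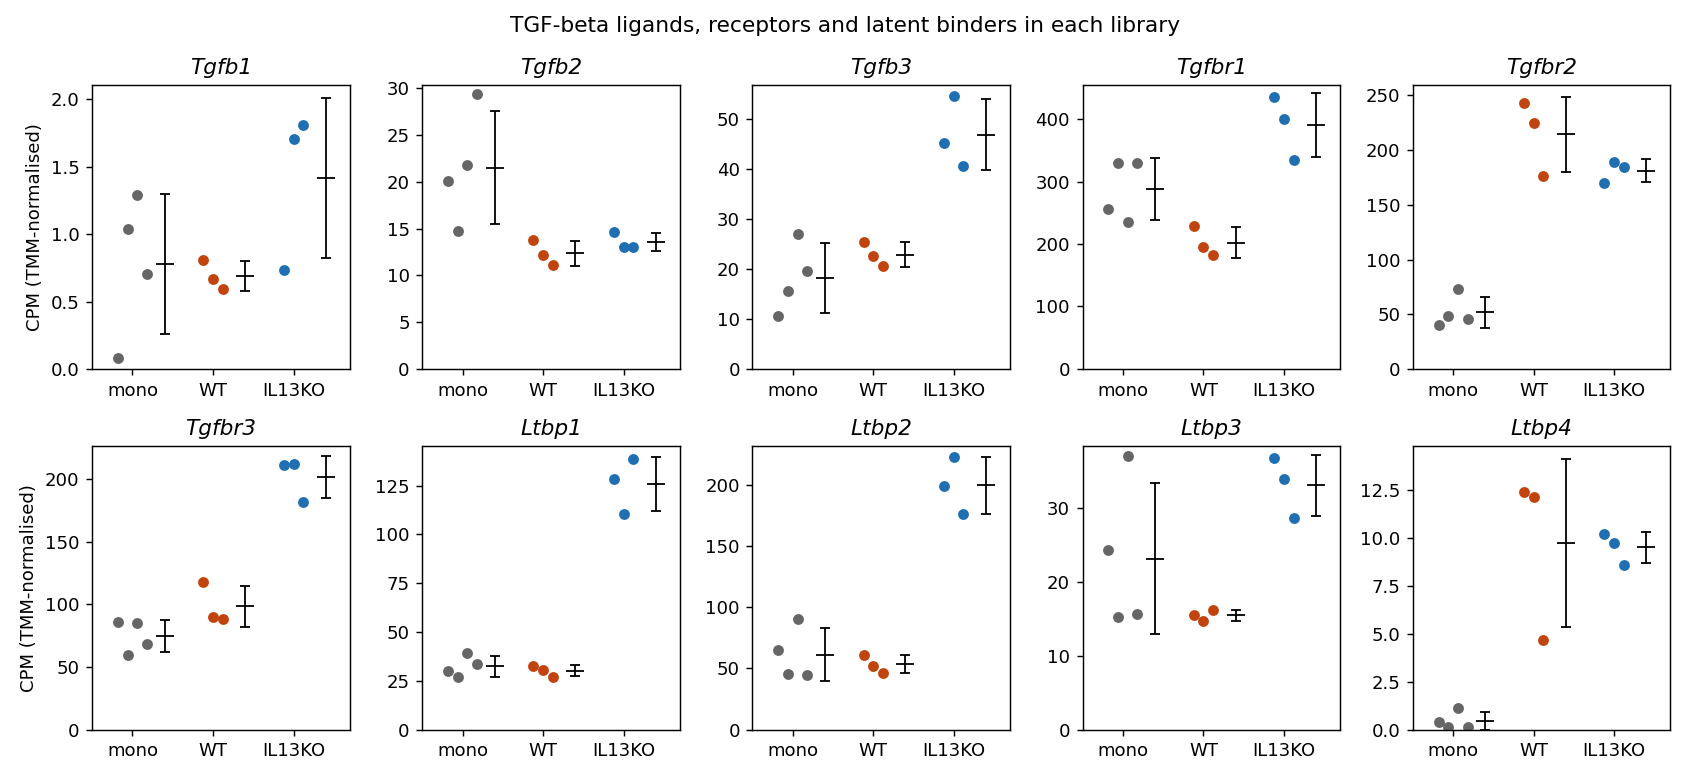
Normalised CPM of the 10 genes in each library, by group (4 monocultures, 3 WT and 3 IL13KO cocultures); points are libraries and the bar to the right of each group is the mean ± SD. Ltbp1, Ltbp2 and Tgfbr3 are highest in the 3 IL13KO cocultures, whereas Tgfbr2 and Ltbp4 are high in all 6 cocultures.

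Markers of other cells also differed between the groups, and the sums of several lists rested on single genes. The 5 mural and stellate cell markers, all with reads in every group, summed to 102 to 129 CPM in the monocultures, 51.4 to 110.1 with WT and 283 to 306 with IL13KO ILC2s. The high sum with IL13KO ILC2s came from Pdgfrb at 52.9 ± 15.1, 69.2 ± 28.0 and 225 ± 20.1 CPM (SD, n = 4, 3 and 3), which like Tgfbr3, Ltbp1 and Ltbp2 was highest there. Against the monoculture, Rgs5 (-2.58 ± 0.21), Kcnj8 (-3.27 ± 0.29) and Mcam (-1.66 ± 0.42) were called lower with WT ILC2s and none of the 3 was called with IL13KO ILC2s. The 7 fibroblast markers summed to 5825 to 7605, 8140.4 to 12395 and 15623 to 18943 CPM in the same order of groups, which followed Col1a1. In each coculture 4 of the 7 were called higher and 2 lower, the lower being Dcn (-2.78 ± 0.20 with WT, -0.62 ± 0.18 with IL13KO ILC2s) and Lum (-3.69 ± 0.21 and -1.44 ± 0.19).

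The 7 leukocyte markers summed to 2.89 to 6.61 CPM in the monocultures (Ptprc, Laptm5 and Rac2 at 0), 95.4 to 119 with WT and 14.1 to 22.1 with IL13KO ILC2s, nearly all of it Cd53 (3.13 ± 0.7602, 103.6 ± 10.04 and 16.4 ± 3.32 CPM). The 8 ILC2 markers, of which 7 were in the table, summed to 60.6 to 73.5, 56.1 to 69.04 and 59.3 to 63.4 CPM, most of it Rora, which fell with WT ILC2s (-0.61 ± 0.11). Il5, Klrg1 and Il7r were at 0 in the monocultures, and Il5, Gata3 and Il2ra, 3 of the 4 tested, were called higher in both cocultures. Il5 had 0, 12.4 ± 8.27 and 2.01 ± 1.502 CPM and Gata3 1.36 ± 0.614, 5.01 ± 0.693 and 2.69 ± 0.947. Macrophage markers (4 of 5 in the table, Adgre1 at 0 in the monocultures) summed to 58.4 to 65.3, 14.7 to 17.5 and 35.2 to 37.1 CPM. That fall was of Lyz2 (53.4 ± 1.97, 2.85 ± 0.581 and 23.8 ± 1.23 CPM), while Csf1r rose with WT ILC2s (0.52 ± 0.18, adjusted p = 0.0214). Mesothelial markers, with Msln at 0 in monocultures and WT cocultures, summed to 25.03 to 90.3, 129.8 to 141 and 103 to 185 CPM. Endothelial markers stayed at or below 0.769 CPM and epithelial markers at or below 3.33. The part of these cells in the results was not tested.

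Among the ligands, Tgfb3 rose with IL13KO ILC2s, Tgfb2 fell in both cocultures, and Tgfb1 was close to the limit of counting in every library. Tgfb3 (ENSMUSG00000021253, chromosome 12, 86056745 to 86079041, minus strand, GRCm38) had 10.6, 15.6, 27.01 and 19.6 CPM in the monocultures, 25.4, 22.5 and 20.5 in the WT cocultures and 45.2, 54.6 and 40.7 in the IL13KO cocultures. Each IL13KO library lay above the highest of the other 7, while the WT libraries lay within the range of the monocultures. The rise with IL13KO ILC2s was 1.37 ± 0.24, adjusted p = 0.000323, and WT against IL13KO gave -1.03 ± 0.25, adjusted p = 0.009898. WT cocultures and monocultures did not differ past the threshold (0.33 ± 0.24, adjusted p = 0.243), although the WT rise was called without monoculture 3, the highest of its group (0.57, adjusted p = 0.0238). The difference between cocultures was lost without WT coculture 4 (adjusted p = 0.0503) or IL13KO coculture 2 (0.0541). Of the exon bases of Tgfb3, 12.4% are shared with 2 transcripts on the opposite strand, Gm37804 and Gm48008, and reads of the 2 strands cannot be told apart because the strand setting of the counting is not given.

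Tgfb2 (ENSMUSG00000039239, chromosome 1, 186622792 to 186705989, minus strand), the ligand that depends most on betaglycan for receptor binding, had 20.1, 14.7, 21.8 and 29.5 CPM in the monocultures. It had 13.8, 12.2 and 11.2 CPM in the WT cocultures and 14.6, 13.02 and 13.04 in the IL13KO cocultures, so that all 6 cocultures lay below the lowest monoculture. The falls were -0.80 ± 0.20, adjusted p = 0.00403 with WT and -0.67 ± 0.20, adjusted p = 0.0129 with IL13KO ILC2s, and the cocultures did not differ past the threshold (-0.13 ± 0.21, adjusted p = 0.713). Exon bases shared with the antisense transcript Gm29491 are 2.14% of Tgfb2. The second fall was lost without IL13KO coculture 2 (adjusted p = 0.0517) or 3 (0.0506). Tgfb1 (ENSMUSG00000002603, chromosome 7, 25687002 to 25705077, plus strand), the ligand most studied in fibrosis, held 1, 14, 14 and 10 reads in the monocultures, 18, 13 and 11 in the WT cocultures and 13, 30 and 32 in the IL13KO cocultures. These are levels of 0.0845 to 1.81 CPM, with overlapping groups, and no comparison was called (adjusted p = 0.821, 0.192 and 0.219 in the order WT against monoculture, IL13KO against monoculture, WT against IL13KO). Its log2 fold changes were -0.16, 0.86 and -1.03 in that order. Their SE was 0.55 to 0.58 on the log2 scale, the widest of the 10 genes, and differences of these sizes were not detectable at this depth.

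Among the receptors, Tgfbr2 rose in both cocultures, whereas Tgfbr1 moved in opposite directions in them and Tgfbr3 rose most with IL13KO ILC2s. Tgfbr2 (ENSMUSG00000032440, chromosome 9, 116084293 to 116175360, minus strand), the kinase that binds the ligand first, had 39.7, 48.5, 72.7 and 45.5 CPM in the monocultures, 243, 224 and 176 in the WT cocultures and 169.7, 189 and 185 in the IL13KO cocultures. The lowest coculture lay well above the highest monoculture, and the coculture groups overlapped each other. The rise with WT ILC2s was 2.06 ± 0.18, adjusted p = 7.84e-07, and that with IL13KO ILC2s 1.81 ± 0.18, adjusted p = 4.55e-06, 4.16-fold and 3.52-fold. WT and IL13KO cocultures did not differ past the threshold (0.24 ± 0.18, adjusted p = 0.382).

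Tgfbr1 (ENSMUSG00000007613, chromosome 4, 47353222 to 47414931, plus strand), the kinase that phosphorylates SMAD2 and SMAD3, had 257, 330.2, 235 and 330.3 CPM in the monocultures, 229, 195 and 182 with WT ILC2s, and 436, 400.4 and 335 in the IL13KO cocultures. The WT libraries lay below and the IL13KO libraries above all 4 monocultures. It fell by 0.51 ± 0.14 with WT ILC2s (adjusted p = 0.00702) and rose by 0.44 ± 0.14, adjusted p = 0.0168 with IL13KO ILC2s, and WT against IL13KO gave -0.95 ± 0.15, adjusted p = 0.000676. The rise was lost without IL13KO coculture 1 (adjusted p = 0.0809) or 2 (0.052), and the fall when a trend with GC content and transcript length was removed (-0.32, 0.0525).

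Tgfbr3 (ENSMUSG00000029287, chromosome 5, 107106570 to 107289629, minus strand), the betaglycan co-receptor, had 86.4, 59.7, 85.2 and 68.7 CPM in the monocultures, 118, 90.3 and 88.2 with WT ILC2s, and 211, 212 and 182 in the IL13KO cocultures. All IL13KO libraries exceeded all others by a wide gap, and the WT libraries lay just above the highest monoculture. The rise with IL13KO ILC2s was 1.43 ± 0.14, adjusted p = 5.62e-06, and WT against IL13KO gave -1.03 ± 0.15, adjusted p = 0.000422. With WT ILC2s the rise was 0.40 ± 0.14, adjusted p = 0.0276. That call ended without monoculture 2 (adjusted p = 0.0796), monoculture 4 (0.0731) or WT coculture 1 (0.15), and under other settings given in the closing section. Exon bases shared with Gm43422 on the same strand are 4.54% of Tgfbr3.

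The latent binders showed the largest differences between the cocultures: Ltbp1 was 4.17-fold and Ltbp2 3.74-fold higher with IL13KO than with WT ILC2s, and with WT ILC2s neither differed from the monoculture past the threshold. Ltbp1 (ENSMUSG00000001870, chromosome 17, 75005568 to 75392512, plus strand), which tethers latent TGF-β to fibrillin, had 29.8, 27.1, 39.4 and 33.7 CPM in the monocultures, 32.7, 30.7 and 27.1 with WT ILC2s, and 128, 111 and 138 in the IL13KO cocultures. The lowest IL13KO library lay far above the highest of the other 7, and the WT libraries lay close to or inside the range of the monocultures. IL13KO against monoculture gave 1.95 ± 0.13, adjusted p = 4.77e-07 (3.88-fold), WT against IL13KO -2.06 ± 0.15, adjusted p = 1.54e-06 and WT against monoculture -0.10 ± 0.14, adjusted p = 0.524. Among the 10 genes it had the smallest adjusted p for any difference between the 3 groups (1.002e-07), ahead of Tgfbr2 (1.714e-06) and Tgfbr3 (6.269e-06). Beside the promoter stretch printed above, the table holds a second Ltbp1 window, chr17:75178531-75178780, with 2 matches to CAGAC. For both windows a short stretch of bases after the start was not found in a GENCODE transcript of Ltbp1. For the printed window most of that stretch lies upstream of the GENCODE start at 75005568, so it could not have been found.

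Ltbp2 (ENSMUSG00000002020, chromosome 12, 84783212 to 84876532, minus strand) is a microfibril protein that, unlike the other three, does not bind latent TGF-β. It had 65.1, 45.3, 90.2 and 44.4 CPM in the monocultures, 61.1, 52.4 and 46.5 with WT ILC2s, and 199.6, 223 and 177 in the IL13KO cocultures, the same order as Ltbp1. The IL13KO libraries again lay above all others, and the WT libraries lay within the range of the monocultures. IL13KO against monoculture gave 1.71 ± 0.21, adjusted p = 2.51e-05, WT against IL13KO -1.90 ± 0.23, adjusted p = 8.72e-05 and WT against monoculture -0.20 ± 0.21, adjusted p = 0.442. The antisense transcript D030025P21Rik shares 9.34% of its exon bases.

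Ltbp3 (ENSMUSG00000024940, chromosome 19, 5740904 to 5758532, plus strand), another tether of the latent complex, had 24.4, 15.3, 37.2 and 15.7 CPM in the monocultures, 15.5, 14.8 and 16.2 with WT ILC2s, and 36.8, 33.9 and 28.6 in the IL13KO cocultures. The monocultures overlapped both coculture groups, monoculture 3 lying just above the IL13KO libraries and WT coculture 3 below the lowest monoculture. WT cocultures were lower than IL13KO cocultures (-1.10 ± 0.27, adjusted p = 0.0118), a call lost without WT coculture 3 (adjusted p = 0.0541) or IL13KO coculture 1 (0.0503). Neither coculture passed the threshold against the monoculture (-0.57 ± 0.26, adjusted p = 0.0728 with WT, 0.52 ± 0.25, adjusted p = 0.0934 with IL13KO ILC2s). Without monoculture 3 the IL13KO value was 0.84 (adjusted p = 0.00164), and without monoculture 2 or 4 the WT fall was called (0.0229 and 0.0263).

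Ltbp4 (ENSMUSG00000040488, chromosome 7, 27305136 to 27337692, minus strand), which binds the latent form of TGF-β1, rose from almost no reads. It had 0.422, 0.148, 1.11 and 0.141 CPM in the monocultures, from 5, 2, 12 and 2 reads, 12.4, 12.1 and 4.69 CPM with WT ILC2s, and 10.2, 9.72 and 8.62 in the IL13KO cocultures. Every coculture exceeded every monoculture, and WT coculture 4 was the lowest of the 6. The rises were 4.50 ± 0.50, adjusted p = 6.69e-06 with WT and 4.46 ± 0.50, adjusted p = 1.31e-05 with IL13KO ILC2s, and WT and IL13KO did not differ past the threshold (0.04 ± 0.39, adjusted p = 0.961). These folds rest on a base of 2 to 12 reads, and without monoculture 3 they were 5.37 and 5.33.

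Per kilobase of exon (RPKM), the makeup of each family differed between the groups as well. This is a description without a test. Tgfb3 made up 57.2% ± 8.86 (SD, n = 4) of the summed ligand RPKM in the monocultures, 74.8% ± 0.0986 (n = 3) with WT and 83.9% ± 2.08 (n = 3) with IL13KO ILC2s, and Tgfb2 41.2% ± 9.86, 23.7% ± 0.0491 and 14.4% ± 2.07. Tgfb1 made up 1.61% ± 1.10, 1.51% ± 0.0752 and 1.73% ± 0.777, and 2.96%, 2.83% and 3.26% when the length of the longest transcript replaced that of all exons. Tgfbr1 led the receptors at 70.9% ± 6.98 of their sum in the monocultures, 42.9% ± 1.21 with WT and 52.9% ± 2.68 with IL13KO ILC2s, while Tgfbr2 held 10.3% ± 3.39, 36.2% ± 2.18 and 19.8% ± 2.45. Ltbp2 led the binders in all groups, at 56.5% ± 2.84, 51.9% ± 1.59 and 59.0% ± 4.22. Shares and sums of the binders depend on the length used. All exons of Ltbp1 span 10691 bases and its longest transcript 6671, and those of Ltbp2 8184 and 6769. Ltbp4 took 0.458% ± 0.321, 11.7% ± 4.28 and 3.56% ± 0.176. The binders summed to 13.1 ± 4.21 RPKM in the monocultures, 12.6 ± 1.73 with WT and 41.3 ± 2.02 with IL13KO ILC2s. Ltbp2, which does not bind latent TGF-β, made up 7.48, 6.51 and 24.4 RPKM of these sums. Ligands summed to 9.25 ± 2.67, 9.02 ± 0.976 and 16.5 ± 2.08 RPKM, and receptors to 61.8 ± 4.95, 72.2 ± 10.03 and 112.7 ± 9.69.

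**Figure D2:**
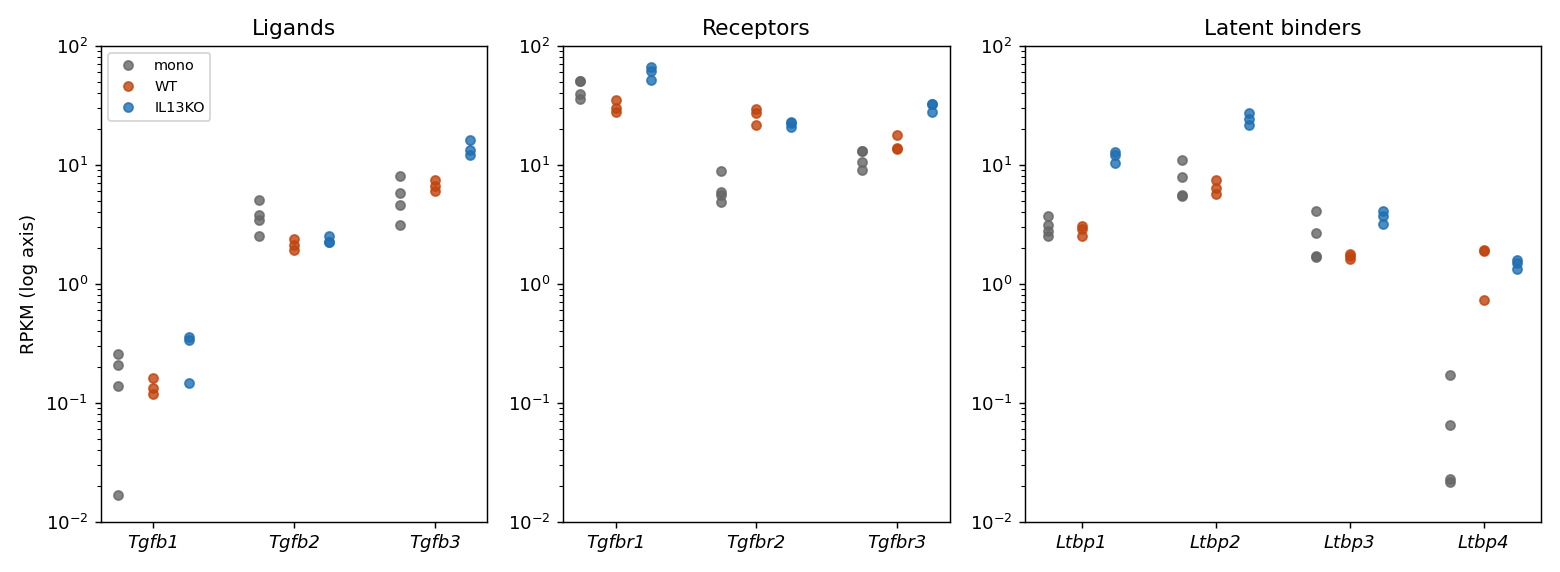
RPKM of the 10 genes on a log axis, by family, with 1 point per library (4 monocultures, 3 WT and 3 IL13KO cocultures). Tgfb1 lies below the other ligands in every library, Tgfbr1 is the highest receptor in each, and the IL13KO libraries lie above the rest for Ltbp1 and Ltbp2.

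Values against the monoculture changed when a joint trend in GC content and transcript length was removed. Of the 10 genes, Ltbp4 (62.2% GC), Ltbp2 (58.5%) and Ltbp3 (58.3%) lie above the upper quartile of all tested genes (54.2%, median 49.6%) and Tgfbr1 (41%) below the lower quartile (44.9%). With each library's trend in GC content and transcript length removed, the value of IL13KO against monoculture turned to -0.38 (adjusted p = 0.0344) for Ltbp2 and to -1.43 (9.29e-05) for Ltbp3, whose rise had not been called. The rise became smaller for Tgfbr2 (0.98), Tgfbr3 (0.83), Ltbp1 (0.67), Ltbp4 (2.12) and Tgfb3 (0.56), all 5 still called. In the same setting the binders Ltbp1 (-1.23), Ltbp2 (-1.95) and Ltbp3 (-2.20) were called lower with WT ILC2s than in the monoculture. Tgfbr2 stayed called there at 1.36 and Ltbp4 at 2.52. Between the cocultures, the same setting left all 6 calls in place: Ltbp1 -1.89, Ltbp2 -1.57, Tgfb3 -0.95, Tgfbr3 -0.94, Tgfbr1 -0.89 and Ltbp3 -0.77. It added Tgfbr2, higher with WT ILC2s by 0.38 (adjusted p = 0.047). Whether GC content or length had a part in the changes against the monoculture was not tested.

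**Figure D3:**
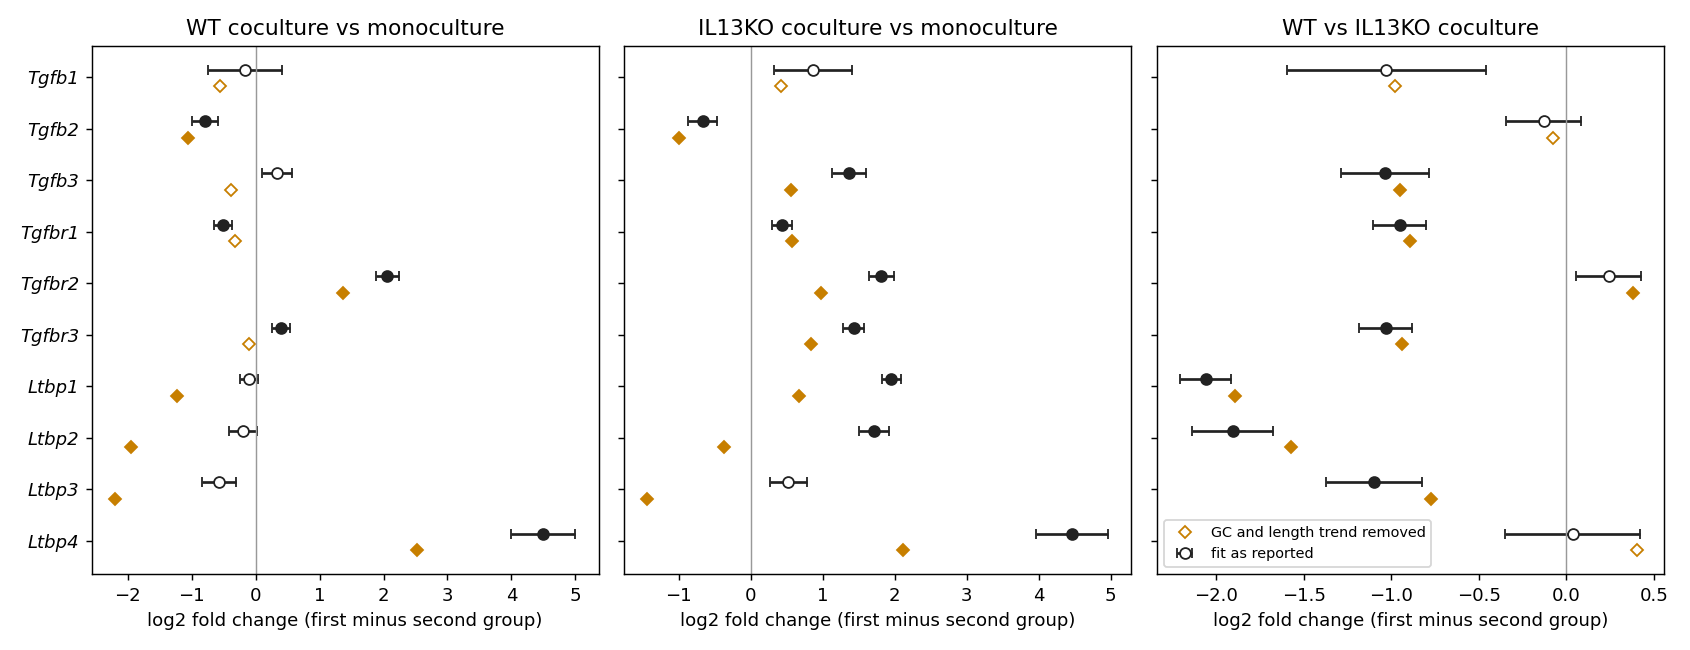
Log2 fold change of the 10 genes in the 3 comparisons (first minus second group; each panel has its own x axis). Circles are the fit described in the text with bars of ± SE, diamonds the same after the GC and length trend was removed, and filled symbols were called; in the panel of WT against IL13KO the circle and diamond of each called gene lie on the same side of 0.

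Genes whose log2 CPM ran most like the 3 leading members over the 10 libraries were looked for among 12132 genes, by Pearson r. The libraries form 3 groups, so that r mainly repeats the order of the group means and is given as a description only. For Ltbp1 these were Acvrl1 (0.9795), which encodes the type I receptor ALK1, Trp53inp2 (0.9733) and Susd2 (0.9701), and 14 genes exceeded 0.95. For Tgfbr3 they were Eps8 (0.9871), Draxin (0.9804) and Ppp3ca (0.9788), with 33 above 0.95. For Tgfbr2 they were Tmem115 (0.9983), Dazap1 (0.997) and U2af2 (0.9968), with 1003 above 0.95.

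The other genes of the pathway are described by list, each list read against the shares of all genes called that were given above. Most genes that hold, process or release latent TGF-β rose in both cocultures: 10 of 12 tested were called higher and 0 lower in each, with medians of 1.49 with WT and 1.30 with IL13KO ILC2s, and Itgb6, Mmp9, Nrros and Plg were not tested. Lrrc32, which encodes the latent TGF-β anchor GARP, had 57.04 CPM in the monocultures, 363 with WT (2.67 ± 0.21, adjusted p = 3.75e-07) and 664 with IL13KO ILC2s (3.54 ± 0.21, adjusted p = 2.27e-07). It was the single gene of the list called between the cocultures (-0.87 ± 0.22, adjusted p = 0.0115), a call lost without WT coculture 4 (0.0557). Bmp1, a protease that cleaves LTBP1, rose from 51.98 to 456 CPM with WT (3.14 ± 0.17, adjusted p = 2.01e-08) and to 445 with IL13KO ILC2s (3.10 ± 0.17, adjusted p = 1.25e-07). Emilin1, a matrix protein that restrains TGF-β processing, rose by 3.29 ± 0.28, adjusted p = 8.32e-07 and 3.68 ± 0.29, adjusted p = 9.63e-07. The matrix proteases Mmp2 (1.69 ± 0.15, adjusted p = 1.23e-06, WT) and Mmp14 (2.40 ± 0.23, adjusted p = 4.27e-06, IL13KO) rose too. In the monocultures, WT and IL13KO cocultures Mmp2 averaged 254, 823 and 688 CPM and Mmp14 53.4, 195 and 282. After removal of the GC and length trend the counts were 9 higher and 2 lower with WT and 8 and 2 with IL13KO ILC2s, and the values fell to 1.10 and 1.72 for Lrrc32, 1.67 and 1.36 for Bmp1, 1.57 and 1.67 for Emilin1, 0.75 for Mmp2 and 1.44 for Mmp14, all still called.

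Of 16 genes of the microfibril scaffold on which LTBPs are held, 6 rose and 5 fell with WT ILC2s, 8 rose and 3 fell with IL13KO ILC2s, and 8 were lower and 0 higher with WT than with IL13KO ILC2s (medians 0.30, 0.58 and -0.56). Mfap4, a microfibril-associated protein, had 72.2 CPM in the monocultures, 4.81 with WT (-3.91 ± 0.19, adjusted p = 1.07e-08) and 28.3 with IL13KO ILC2s (-1.35 ± 0.17, adjusted p = 2.46e-05), and WT against IL13KO gave -2.56 ± 0.19, adjusted p = 2.03e-06. Mfap5, another of these proteins, fell from 2185 to 817 CPM with WT (-1.42 ± 0.10, adjusted p = 2.23e-07) and to 1184 with IL13KO ILC2s (-0.88 ± 0.10, adjusted p = 1.64e-05). Fbln2 (fibulin-2) rose from 442 to 2353 CPM with IL13KO ILC2s (2.41 ± 0.20, adjusted p = 1.64e-06) and, less, to 1009 CPM with WT ILC2s (1.19 ± 0.20, adjusted p = 0.000192). It was lower with WT than with IL13KO ILC2s (-1.22 ± 0.22, adjusted p = 0.00141), as were Fbln1 (-1.21 ± 0.17, adjusted p = 0.000278) and Fbln7 (-2.29 ± 0.23, 1.72e-05). Fbln7 also fell against the monoculture with WT ILC2s (-2.89 ± 0.22, adjusted p = 3.33e-07), while Emilin2 rose with WT (3.85 ± 0.16, adjusted p = 3.27e-09) and IL13KO ILC2s (3.42 ± 0.16, adjusted p = 5.10e-08). After removal of the GC and length trend, the split against the monoculture was 3 higher and 10 lower with WT and 5 and 9 with IL13KO ILC2s. Fbln2 was then 0.72 with IL13KO ILC2s, and Emilin2 2.58 and 1.94 with WT and IL13KO ILC2s. The Fbln2 value with WT ILC2s in that setting is not given here. Between the cocultures the split was 2 and 8.

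Of 12 co-receptors and ligand traps, 4 rose and 5 fell with WT ILC2s, 8 rose and 2 fell with IL13KO ILC2s, and 7 were lower and 0 higher with WT than with IL13KO ILC2s (medians -0.20, 0.60 and -0.90). Dcn (decorin, a proteoglycan that binds TGF-β) had 2532 CPM in the monocultures, 369 with WT (-2.78 ± 0.20, adjusted p = 1.96e-07) and 1650.2 with IL13KO ILC2s (-0.62 ± 0.18, adjusted p = 0.0117), and WT against IL13KO gave -2.16 ± 0.20, adjusted p = 1.21e-05. Aspn (asporin), a related proteoglycan, fell with WT (-5.27 ± 0.25, adjusted p = 7.79e-09) and IL13KO ILC2s (-3.27 ± 0.22, adjusted p = 4.27e-07) and was 4.01-fold lower with WT than with IL13KO (adjusted p = 7.07e-05). Lrg1, a secreted protein that binds endoglin, rose with IL13KO ILC2s (1.80 ± 0.21, adjusted p = 1.86e-05) and was lower with WT (-2.98 ± 0.24, adjusted p = 3.87e-06), as was Fmod (fibromodulin, -1.93 ± 0.21, adjusted p = 3.58e-05). Eng (endoglin, a co-receptor) rose from 77.1 to 253 CPM with IL13KO ILC2s (1.71 ± 0.21, adjusted p = 2.86e-05), and Acvrl1, its partner kinase, by 0.87 ± 0.12, adjusted p = 6.17e-05. Eng also rose with WT ILC2s, to 207 CPM (1.42 ± 0.21, adjusted p = 8.02e-05), whereas Acvrl1 was not called there (-0.05 ± 0.12, adjusted p = 0.734). Removing the GC and length trend ended the Eng call with IL13KO ILC2s (0.26, adjusted p = 0.102) and turned Acvrl1 there to -0.58 (0.000608). The Eng value with WT ILC2s in that setting is not given here, so whether its rise holds in it is left unstated. It left 3 higher and 3 lower with IL13KO ILC2s, 4 and 7 with WT ILC2s and 1 and 7 between the cocultures. Mean CPM of the neuropilin Nrp2 was 8.35, 1.57 and 7.57 in the monocultures, WT and IL13KO cocultures. That of the ligand trap Vasn was 15.4, 42.1 and 36.8, above the monocultures in both cocultures. With WT ILC2s Nrp2 fell (-2.41 ± 0.29, adjusted p = 1.31e-05) and Vasn rose (1.45 ± 0.18, adjusted p = 1.86e-05). Without the trend Vasn was 0.32, Nrp2 -3.31, Aspn -4.62 and -2.66 with WT and IL13KO ILC2s, and Lrg1 0.75 with IL13KO ILC2s.

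More SMADs and regulators fell than rose with WT ILC2s. Of 21 tested, 5 rose and 10 fell against the monoculture, 7 rose and 8 fell with IL13KO ILC2s, and 0 were higher and 6 lower with WT than with IL13KO ILC2s (medians -0.42, -0.10 and -0.38). Ppm1a, a phosphatase of SMAD2 and SMAD3, fell with WT (-1.91 ± 0.16, adjusted p = 6.99e-07) and IL13KO ILC2s (-1.48 ± 0.16, adjusted p = 8.99e-06), as did Smurf2, a ubiquitin ligase of the pathway (-1.56 ± 0.15, adjusted p = 1.55e-06, and -1.08 ± 0.14, adjusted p = 4.49e-05). The co-repressor genes Tgif1 (-1.23 ± 0.15, adjusted p = 1.15e-05) and Skil (-0.79 ± 0.10, adjusted p = 2.37e-05) fell with WT ILC2s. Their mean levels with IL13KO ILC2s were also below the monoculture, at 35.3 against 62.9 CPM for Tgif1 and 78.2 against 105.9 for Skil. With IL13KO ILC2s Smad5 (0.71 ± 0.12, adjusted p = 0.000267) and Tgif2 (1.10 ± 0.19, adjusted p = 0.0002899) rose, the second without a call once the GC trend was removed (0.15, 0.452). Before that removal Tgif2 also rose with WT ILC2s (1.22 ± 0.19, adjusted p = 9.32e-05), whereas Smad5 was not called there (0.26 ± 0.12, adjusted p = 0.0817). Between the cocultures Smad1 (-0.58 ± 0.14) and Smad5 (-0.46 ± 0.13), which carry BMP signals, and the inhibitory Smad6 (-1.14 ± 0.30) and Smad7 (-0.59 ± 0.17) were lower with WT ILC2s, at adjusted p = 0.0114, 0.0206, 0.0157 and 0.0224. After removal of the GC and length trend, 1 rose and 12 fell with WT and 3 and 13 with IL13KO ILC2s. The 6 lower between the cocultures became 2 to 8 when single libraries were left out: Smad5 was lost without WT coculture 3 or 4 or IL13KO coculture 1 or 2, Smad6 without WT coculture 1 or 3 or IL13KO coculture 2, and Smad7 without any 1 WT coculture, IL13KO coculture 1 or IL13KO coculture 3, at adjusted p = 0.0528 to 0.0959. The Smad7 call was also lost without the GC and length trend (-0.35, 0.145).

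Genes known to be induced by TGF-β moved in both directions. Of 29 tested, 12 rose and 12 fell with WT ILC2s, 12 rose and 9 fell with IL13KO ILC2s, and 4 were higher and 11 lower with WT than with IL13KO ILC2s (medians 0.20, 0.08 and -0.40). Col1a1, a fibrillar collagen chain, rose from 1069.7 to 11570.2 CPM with IL13KO ILC2s (3.44 ± 0.27, adjusted p = 1.00e-06), with Col3a1 (1.80 ± 0.18, adjusted p = 5.82e-06) and the matrix protein Tgfbi (1.52 ± 0.14, adjusted p = 3.09e-06). These genes were also called higher with WT ILC2s: Col1a1 at 6756 CPM (2.66 ± 0.26, adjusted p = 2.46e-06), Col3a1 (0.69 ± 0.18, adjusted p = 0.0048) and Tgfbi (0.75 ± 0.14, adjusted p = 0.000484). Junb, an AP-1 subunit, rose with WT (3.52 ± 0.32, adjusted p = 1.17e-06) and IL13KO ILC2s (3.73 ± 0.32, adjusted p = 1.85e-06). Snai2, a transcription factor of mesenchymal cells, fell with WT ILC2s (-1.73 ± 0.11, adjusted p = 7.27e-08) and was lower than with IL13KO (-0.84 ± 0.11, adjusted p = 0.0002101), as was the cartilage matrix gene Cilp (-3.57 ± 0.27, adjusted p = 2.51e-07; -2.99 ± 0.27, adjusted p = 9.31e-06). With IL13KO ILC2s Snai2 averaged 46.4 CPM and Cilp 20.5, against 86.4 and 30.7 in the monocultures. Bhlhe40, a repressor of transcription, was higher with WT ILC2s than alone (2.04 ± 0.14, adjusted p = 1.13e-07) or with IL13KO ILC2s (1.09 ± 0.15, adjusted p = 0.000197), and Edn1 (endothelin-1) higher than with IL13KO (1.96 ± 0.25, adjusted p = 0.0001399). Removing the GC and length trend gave 7 higher and 15 lower with WT, 8 and 12 with IL13KO and 4 and 10 between the cocultures. With IL13KO ILC2s Col1a1 was then at 1.38, Col3a1 at 0.63 and Tgfbi at 0.78. Their values with WT ILC2s in that setting are not given here, so whether those rises hold in it is left unstated. Cilp was at -4.52 with WT ILC2s, and Junb at 2.56 and 2.57 with WT and IL13KO ILC2s. The target list shares Smad7, Skil, Pmepa1 and Fn1 with other lists.

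The following 3 targets, often read as a TGF-β response, lie outside the naming rule and were chosen after their values were seen. Postn (periostin) had 458 ± 65.1 CPM (SD, n = 4) in the monocultures, 1576 ± 849 (n = 3) with WT and 411 ± 53.5 (n = 3) with IL13KO ILC2s. Acta2 (smooth muscle actin) had 1156 ± 97.2, 767 ± 132 and 875 ± 156 CPM in the same order, and Ccn2, a matricellular protein, 47.6 ± 12.4, 14.8 ± 3.36 and 28.2 ± 4.71. WT against IL13KO gave 1.94 ± 0.29, adjusted p = 0.000475 for Postn, -0.19 ± 0.15, adjusted p = 0.381 for Acta2 and -0.93 ± 0.22, adjusted p = 0.00859 for Ccn2. WT against monoculture gave 1.78 ± 0.27 (adjusted p = 7.71e-05), -0.59 ± 0.14 (0.00224) and -1.68 ± 0.21 (1.93e-05) in the same order. The WT libraries spread widely for Postn, from 846 to 2507 CPM.

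In the related activin branch, 5 of 10 genes rose and 4 fell with WT ILC2s, 3 rose and 2 fell with IL13KO ILC2s, and 0 were higher and 3 lower with WT than with IL13KO ILC2s (medians -0.06, 0.01 and -0.14). The receptor genes Acvr1b (1.34 ± 0.26, adjusted p = 0.000638; 2.26 ± 0.26, adjusted p = 1.61e-05) and Acvr2a (0.57 ± 0.11, adjusted p = 0.000495; 0.39 ± 0.11, adjusted p = 0.00721) rose in both cocultures, and with WT ILC2s the ligand genes Gdf11 (-1.23 ± 0.24, adjusted p = 0.000568) and Gdf15 (-0.86 ± 0.19, adjusted p = 0.00187) fell. With IL13KO ILC2s the activin trap Fstl3 rose (0.84 ± 0.19, adjusted p = 0.00191) and the activin subunit Inhba fell (-0.52 ± 0.19, adjusted p = 0.0296). In the monocultures, WT and IL13KO cocultures Fstl3 averaged 35.0, 53.5 and 62.6 CPM and Inhba 22.3, 16.6 and 15.6. In the same order Gdf11 averaged 11.8, 5.06 and 7.83 CPM and Gdf15 26.9, 14.8 and 24.2. Acvr1b (-0.92 ± 0.27), Gdf15 (-0.71 ± 0.20) and the activin subunit Inhbb (-0.89 ± 0.23) were lower with WT than with IL13KO ILC2s. Gdf15 was lost there without any 1 of the 6 cocultures, Acvr1b without WT coculture 3 or 4 or IL13KO coculture 1 or 2, and Inhbb without WT coculture 3 or 4 or IL13KO coculture 1 (adjusted p = 0.0522 to 0.0968). The Inhba fall was lost without monoculture 1 or 4 or IL13KO coculture 1 or 2 (0.0507 to 0.131). Removing the GC and length trend left 1 higher and 3 lower with WT, 2 and 4 with IL13KO ILC2s and 0 and 3 between the cocultures. It ended the rises of Acvr1b with WT (0.31, 0.27) and of Fstl3 (0.12, 0.468), and gave 1.10 for Acvr1b with IL13KO ILC2s, -2.07 for Gdf11 and -1.60 for Gdf15 with WT ILC2s.

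**Figure D4:**
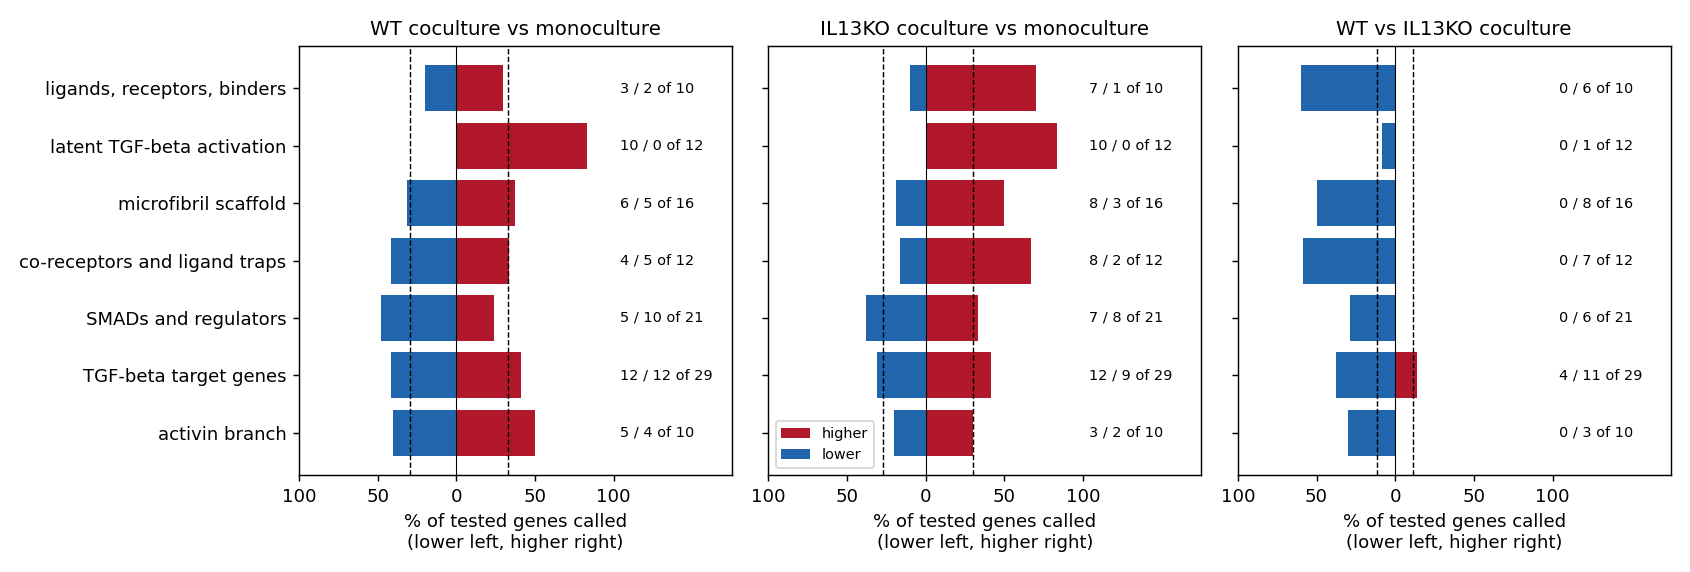
Share of the tested genes of each list called higher (right) or lower (left) in the 3 comparisons, with the counts printed as higher / lower of tested; dashed lines mark the share of all tested genes called in that direction. Between the cocultures the bars lie on the lower side except for 4 target genes, and the release list is on the higher side of both comparisons with the monoculture.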

How the data were processed

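The 10 bulk libraries came, per the labels' protocols, from a kit for single cells or low input, with paired-end sequencing at 50 nt. Per the submitters' processing notes, STAR 2.7.7a, Salmon 1.6.0, Trimmomatic 0.39, FastQC 0.11.9, DESeq2 and Picard were used with the build GRCm38.p6, while the counting tool, annotation and strand setting are not given in the sources used here. The authors deposited raw counts for 22731 genes as whole numbers. A second deposited table held the same counts divided by a size factor per library and was not used. GENCODE M21 on GRCm38 matched 22647 identifiers and gave positions, exon lengths, GC content and symbols. Promoter windows came from RefSeq.

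Counts were filtered with filterByExpr, scaled by TMM and fitted with edgeR 4.0.16 (R 4.3.3, limma 3.58.1), as a quasi-likelihood model over all 10 libraries with 1 coefficient per group. P-values were Benjamini-Hochberg adjusted over 16344 genes per comparison and called below 0.05. The SE of a log2 fold change is its size over the root of F. RPKM used the union of exons. Log2 CPM used a prior count of 2. Columns of the count table name a group and a number but no sample title, so library numbers are those of the columns. The pair with the most similar counts in a group still differed beyond sampling noise.

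The 10 genes and the lists were chosen with earlier results of these data known. The rule names all 10 genes, up to 4 genes per pathway list and comparison with the smallest adjusted p among called genes, and for the 3 leading members the 3 genes most like each. The alternatives tried were DESeq2 1.42.0, limma-voom, other scalings and filters, fits of the compared groups alone, a replicate block, a GC and length trend (loess, span 0.4), a test against a fold change of 1.5 and leaving out each library. The model was also run on simulated data with 200 changed genes. That is far fewer than were called here, so the run does not show how the model behaves in these comparisons.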

Additional observations from a re-analysis of the deposited data

How the results depend on the processing

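Over 20 alternatives for each of the 10 genes in each comparison (600 values), 553 kept their direction and their side of the threshold, 24 lost a call, 10 gained one and 13 turned direction. Turned values against the monoculture with WT ILC2s were Tgfb1 at 0.225 (limma-voom) and 0.184 (replicate block), Tgfb3 at -0.389 and Tgfbr3 at -0.105 (GC and length). With IL13KO ILC2s they were Ltbp2 at -0.376 and Ltbp3 at -1.434 (GC and length), and between the cocultures Ltbp4 at -0.069 (limma-voom). Leaving out single libraries gave Tgfb1 -0.528 to 0.148 and Ltbp2 -0.328 to 0.046 with WT ILC2s, and Ltbp4 -0.173 to 0.37 between the cocultures. The Tgfbr3 rise with WT ILC2s was also lost with upper-quartile scaling (adjusted p = 0.116) and with the compared groups alone (0.0525). Of the genes called, 5884, 4234 and 1109 also passed when the null was a fold change of 1.5, in WT against monoculture, IL13KO against monoculture and WT against IL13KO. Of the 10 genes, 2, 6 and 3 passed in that order. Between the cocultures Tgfb3 (adjusted p = 0.145), Tgfbr1 (0.0538) and Ltbp3 (0.136) lost their calls in that test. Between the cocultures 3810 genes were called, 5806 with the compared groups alone, and 2337 to 4814 when single libraries were left out. Removing the GC and length trend moved the IL13KO split against the monoculture from 4927 higher and 4457 lower to 3027 and 4990, and the median of all genes to -0.125 and -0.157 with WT and IL13KO ILC2s. Upper-quartile scaling moved that median to -0.106 and -0.102. Libraries of different groups that share a column number had correlations of their deviations of -0.126 to 0.028. Those with different numbers had -0.153 to 0.14. These values show no pairing by number, but they cannot tell whether libraries share an animal or day. With the replicate block 2124 genes were called between the cocultures, and Tgfb3 (0.0588) and Ltbp3 (0.0518) were lost there, as were Smad1, Smad5, Smad6 and Smad7. The causes of these changes were not tested. Depth limits Tgfb1 and the monoculture level of Ltbp4, at 1 to 32 and 2 to 12 reads a library.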
